A study of Mus musculus with 18 samples.

Results

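Bulk RNA sequencing of mouse liver tumors was used to compare tumors labelled CCA with tumors labelled mixed within the YAP-SY model. CCA stands for cholangiocarcinoma, a cancer with features of bile duct cells, and the labels do not spell out what the mixed tumors mix. The comparison takes in 6 of the 18 samples of the series, YAP-SY CCA tumors 1, 6 and 8 and YAP-SY mixed tumors 3, 5 and 9. Each tumor was placed by its genotype label, but members and gene lists were chosen with earlier results of these data known. The YAP-SY CCA and YAP-SY mixed tumors had been raised with myr-AKT, an activated form of the kinase AKT, together with YAP carrying S127A and Y357F. The other 6 tumors, YAP-S CCA (3, 4 and 5) and YAP-S mixed (2, 7 and 9), had myr-AKT together with YAP carrying S127A only. All 12 tumors therefore share myr-AKT and S127A, and no tumor without them is compared here. RNA came from tumor nodules, so each value is an average over the tumor cells and the other cells of a nodule. Strain, sex, age, the promoters of the introduced genes and the meaning of the tumor numbers are not given in the sources used here.

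YAP is the transcriptional co-activator of the Hippo pathway and works with TEAD transcription factors at genes such as Ctgf, Cyr61 and Ankrd1. The Hippo kinases hold it in the cytoplasm by phosphorylating the serine that S127A removes, while Src family kinases phosphorylate the tyrosine that Y357F removes. In the liver, high YAP activity is known to push cells towards a bile duct character and to lower hepatocyte gene expression, and the series asks what the tyrosine contributes in each of these cell types.

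Total counts of the 6 tumors lay between 32303243 and 130035221, against 30656499 to 130035221 over all 12. YAP-SY CCA tumor 1 stood apart from CCA tumors 6 and 8: its second principal component was 107 against -68.5 and -14.2, and it had the fewest genes with a count of the 12 tumors, 18207. CCA tumor 8 had its highest correlation of log2 CPM across genes with mixed tumor 9, at 0.974, rather than with a tumor of its own label. Levels are given as CPM: counts scaled to a common library size with TMM factors. The names of the deposited columns also begin in 2 ways, with CCA tumor 8 and mixed tumor 3 in one set and the other 4 tumors in the other. What the beginnings stand for is not given in the sources used here. Fold changes are log2 of CCA over mixed, with the standard error (SE) of the edgeR fit.

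The YAP-SY CCA label was first set against marker genes. The 30 markers of cholangiocytes, the cells that line bile ducts, were lower in the CCA tumors and not higher: 28 of 30 had a log2 fold change below 0, with a median of -1.13 against -0.01 over all 18318 tested genes. Their summed level was 5637, 3894 and 4583 CPM in CCA tumors 1, 6 and 8, against 9566, 19609 and 6180.4 CPM in mixed tumors 3, 5 and 9. Most of each sum was a single gene, Spp1, whose levels are given below and which did not pass the test. Krt19, the keratin used to stain bile duct cells, was at 15.6, 2.52 and 1.45 CPM in the CCA tumors and at 37.6, 3.94 and 43.2 CPM in the mixed tumors, so the groups overlapped and the test was not passed (log2 fold change -2.10, adjusted p 0.233). The 29 hepatocyte identity genes ran the other way, with 28 above 0, a median of 0.52 and summed levels of 233430, 239420 and 220390 CPM in CCA, against 182500, 139130 and 160000 CPM in mixed tumors. These levels go against what the label CCA stands for. The tumors are called by their labels below, and nothing is inferred about their histology. In bulk tissue, fewer cells of a type and less RNA per cell cannot be told apart.

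Across all genes, few were higher in YAP-SY CCA tumors and many were lower. Of 18318 genes tested, 532 passed an adjusted p of 0.05. Of these, 38 were higher (0.207% of the genes tested) and 494 lower (2.7%) in CCA. The median log2 fold change was 0.75 among the 38 and -1.38 among the 494. Before adjustment 3951 genes had p under 0.05, 1335 higher and 2616 lower. The CCA and mixed tumors did not overlap in 531 of the 532 genes. Over all tested genes such separation occurred upwards in 1464 (7.99%) and downwards in 2221 (12.1%). Counts of called or separated list members below are to be read beside these shares. Of the 494 lower genes, 12 had no count in any CCA tumor, so that their fitted fold changes depend on the prior count of the fit. No gene that was higher had all 3 mixed tumors at 0.

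**Figure D1:**
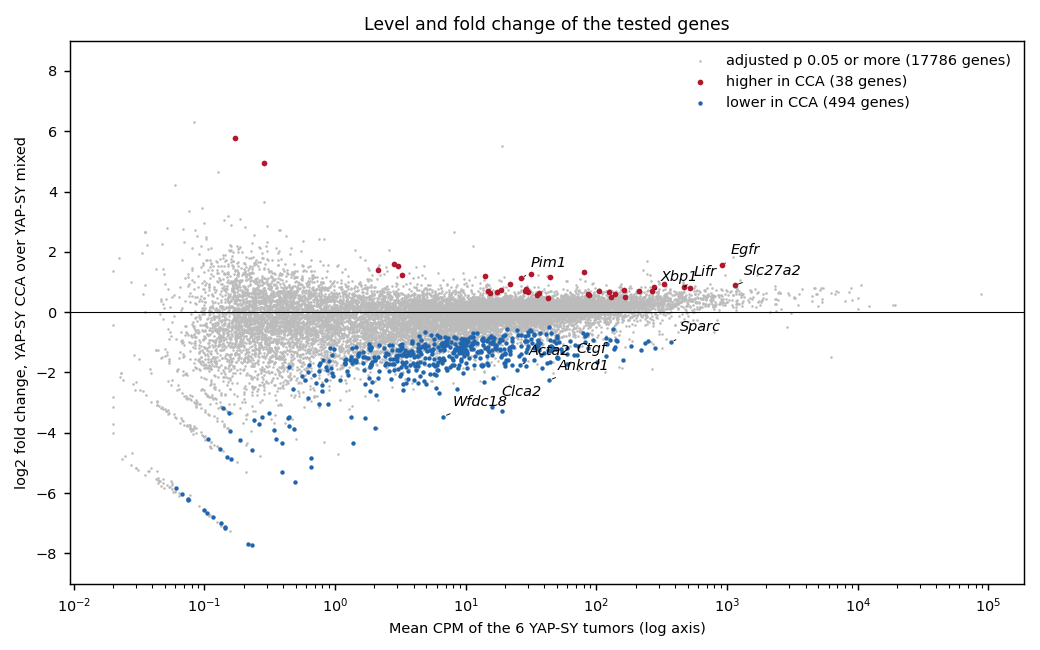
Mean level over the 6 YAP-SY tumors in CPM (log axis) against the log2 fold change of YAP-SY CCA over YAP-SY mixed tumors, 1 point per tested gene. Red points are the 38 genes that passed the test as higher in CCA and blue points the 494 that passed as lower. Grey points did not pass.

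How many genes passed depended on single tumors and on the test. Without CCA tumor 6 no gene passed with edgeR (3767 genes at unadjusted p under 0.05), without CCA tumor 1 109 did, without CCA tumor 8 319, and without mixed tumor 5 113. Leaving out a YAP-S tumor, which enters the fit through the spread, the scaling and the filter, left 222, 215 and 242 genes without YAP-S CCA tumors 3, 4 and 5 and 332 without YAP-S mixed tumor 9. With the 6 YAP-SY tumors alone no gene passed, with 2317 at unadjusted p under 0.05. The DESeq2 Wald test called 1834 genes, 451 higher and 1383 lower (75.4% lower, against 92.9% in the edgeR fit), and limma-voom with sample weights called 16. With the beginning of the column name as a term in the fit 166 genes passed, and within the larger set of columns, 2 CCA against 2 mixed tumors, 713 did. With library size alone as the scaling the median of all genes moved to -0.30 and 2006 genes passed, 18 higher and 1988 lower (99.1% lower). Changes below are relative to the TMM scaling, under which that median is -0.01. The labels do not say that the tumors came from separate animals, so the p-values measure the spread between these samples. The calls below are those of the edgeR fit over all 12 tumors. For CCA against mixed within YAP-SY, every one of them was lost without CCA tumor 6.

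Among receptors and kinases, Egfr and Pim1 rose. Egfr, the receptor of epidermal growth factor (ENSMUSG00000020122, chromosome 11, 16752203 to 16918158 on mm10), was at 1213, 1649 and 1217 CPM in CCA tumors 1, 6 and 8, against 655, 377 and 357 CPM in mixed tumors 3, 5 and 9. Every CCA tumor lay above every mixed tumor. Egfr was 2.94-fold higher (log2 fold change 1.55, SE 0.37, adjusted p 0.0452), the largest called rise once genes averaging under 5 CPM in CCA tumors are set aside. It lost its call when any one of CCA tumors 1, 6 and 8 or mixed tumors 5 and 9 was left out, with log2 fold changes of 1.63, 1.39, 1.63, 1.43 and 1.40 and adjusted p from 0.0637 to 0.163. Pim1, a serine/threonine kinase gene induced by STAT transcription factors (ENSMUSG00000024014, chromosome 17, 29490812 to 29496111), was at 31.4, 39.3 and 38.6 CPM in CCA and 17.6, 18.2 and 14.1 CPM in mixed tumors. The 3 CCA tumors were again all above the 3 mixed ones. Pim1 was 2.19-fold higher (log2 fold change 1.13, SE 0.16, adjusted p 0.0127). Without CCA tumor 6 its log2 fold change was 1.07 and its adjusted p 0.0604, and in the other 5 omissions of a YAP-SY tumor it stayed called, as it did with limma-voom (1.14, adjusted p 0.0242).

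Beyond Egfr, the EGF receptor family and its ligands did not move together. Of 18 tested members, Egfr rose and Hbegf fell, and the median was 0.03, a value whose sign turned with upper quartile scaling. Hbegf, which encodes a membrane-anchored ligand of Egfr, was at 1.93, 2.15 and 1.75 CPM in CCA and 5.75, 4.71 and 5.07 CPM in mixed tumors, 2.66-fold lower in CCA with no overlap (log2 fold change -1.41, SE 0.24, adjusted p 0.0175). Erbb2, the partner receptor without a ligand of its own, had a log2 fold change of -0.87 (adjusted p 0.17), Erbb3 0.32 (adjusted p 0.551) and Errfi1, an inhibitor of Egfr, 0.20 (adjusted p 0.761). Among 25 genes of the PIM kinases and the JAK and STAT pathway, Pim1 and Lifr rose and Osmr fell, with a median of 0.10 that turned negative with library size alone as the scaling. Lifr, the receptor of leukemia inhibitory factor, held 637, 582 and 592 CPM in CCA and 347, 267 and 398 CPM in mixed tumors (log2 fold change 0.84, SE 0.20, adjusted p 0.045). Osmr, the receptor chain for oncostatin M, held 13.8, 14.8 and 14.1 CPM in CCA and 25.9, 36.7 and 31.8 CPM in mixed tumors (log2 fold change -1.15, SE 0.27, adjusted p 0.0419). Both receptors pair with the same signalling chain, Il6st, whose log2 fold change was 0.10 (adjusted p 0.715). Pim2 and Pim3 did not pass (0.06, adjusted p 0.926, and 0.58, adjusted p 0.439), and neither did Stat3 (-0.03, adjusted p 0.937) nor the STAT target Socs3 (-0.26, adjusted p 0.752). Of 12 genes of Src and Abl family kinases and their regulators, Frk, a kinase related to Src, fell, at 7.25, 8.27 and 7.99 CPM in CCA and 14.7, 18.2 and 12.6 CPM in mixed tumors (log2 fold change -0.95, adjusted p 0.0189). Src itself had -1.10 (adjusted p 0.0588) and Yes1 -0.02 (adjusted p 0.956).

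**Figure D2:**
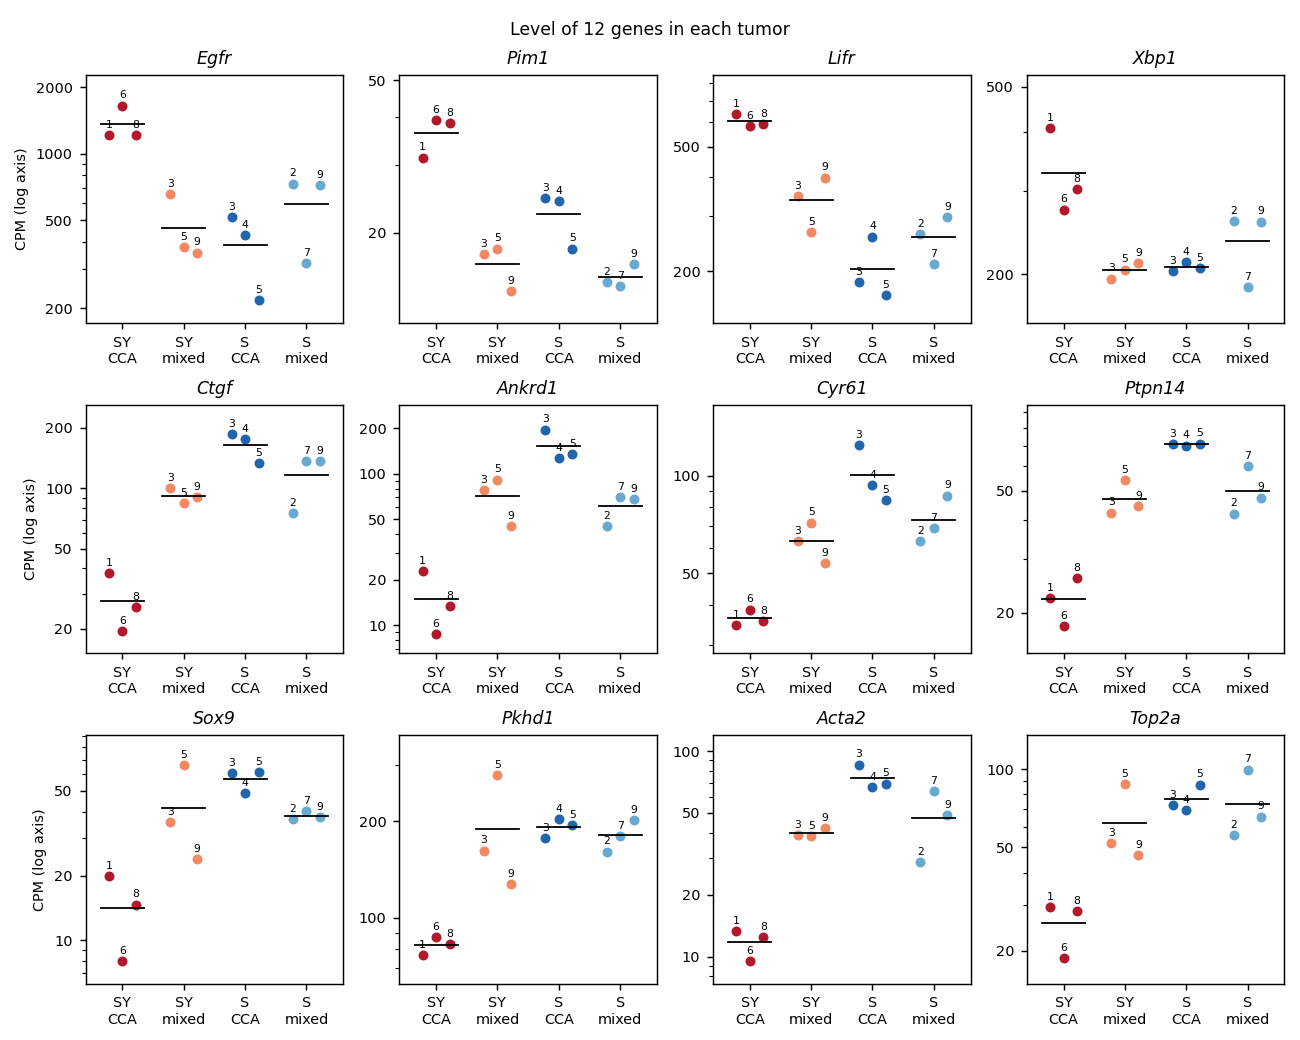
Level of 12 genes in each tumor, in CPM on a log axis; numbers are tumor numbers, bars group means, and SY and S stand for YAP-SY and YAP-S. Egfr, Pim1, Lifr and Xbp1 were above all mixed values in the 3 YAP-SY CCA tumors, and the other 8 genes were below all of them.

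Promoters of 5 genes that fell and hold a match to a searched motif are shown: 3 YAP targets (Ankrd1, Cyr61 and Ptpn14), Acta2 of stellate cells and the bile duct gene Pkhd1. They were picked for their matches. The windows of the YAP targets Myof and Tgfb2, the bile duct gene Dcdc2a and the Notch genes Jag1 and Nrarp, which also fell, hold none of the 4 motifs. A promoter here is the 300 bases from 250 before to 50 from the RefSeq gene start (GRCm38.p6, the same build as mm10), printed 5′ to 3′ on the gene's strand. Capitals mark the letters GGAATG of the TEAD motif, or its reverse complement where the match lies on the opposite strand, and in Pkhd1 the letters of the HNF1 motif (GTTAAT, any base, ATTAA). Ankrd1 (chr19:36119795-36120094, minus strand) has 2 TEAD matches, beginning 210 and 123 bases before the start. Cyr61, listed by RefSeq as Ccn1 (chr3:145649936-145650235, minus strand), has 1 on the opposite strand 103 bases before it, and Ptpn14 (chr1:189728018-189728317, plus strand) 1 on the opposite strand 146 bases before it. Acta2 (chr19:34255324-34255623, minus strand) has 1 match 146 bases before the start. Pkhd1 (chr1:20618008-20618307, minus strand) has the HNF1 match 79 bases before its start.
Ankrd1: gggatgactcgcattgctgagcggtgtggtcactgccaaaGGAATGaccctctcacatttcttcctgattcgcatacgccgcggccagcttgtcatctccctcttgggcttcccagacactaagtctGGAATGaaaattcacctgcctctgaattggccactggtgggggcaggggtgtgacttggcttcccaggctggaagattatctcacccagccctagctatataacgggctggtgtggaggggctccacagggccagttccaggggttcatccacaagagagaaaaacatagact
Cyr61: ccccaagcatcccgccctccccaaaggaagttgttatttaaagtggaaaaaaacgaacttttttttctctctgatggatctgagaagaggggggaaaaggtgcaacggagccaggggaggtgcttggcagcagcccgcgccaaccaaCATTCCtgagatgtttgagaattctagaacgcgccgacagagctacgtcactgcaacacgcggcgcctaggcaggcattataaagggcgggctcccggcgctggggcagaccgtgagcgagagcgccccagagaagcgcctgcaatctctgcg
Ptpn14: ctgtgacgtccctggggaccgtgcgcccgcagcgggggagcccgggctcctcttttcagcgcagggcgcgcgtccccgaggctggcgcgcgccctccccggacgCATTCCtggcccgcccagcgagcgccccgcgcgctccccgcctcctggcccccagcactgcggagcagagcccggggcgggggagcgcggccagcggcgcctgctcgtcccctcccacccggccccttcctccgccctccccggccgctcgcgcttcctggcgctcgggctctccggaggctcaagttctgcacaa
Acta2: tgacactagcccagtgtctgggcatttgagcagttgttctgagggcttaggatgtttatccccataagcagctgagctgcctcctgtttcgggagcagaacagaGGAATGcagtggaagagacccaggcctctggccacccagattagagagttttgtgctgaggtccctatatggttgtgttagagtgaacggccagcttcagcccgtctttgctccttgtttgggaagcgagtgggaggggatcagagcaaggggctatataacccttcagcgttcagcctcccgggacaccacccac
Pkhd1: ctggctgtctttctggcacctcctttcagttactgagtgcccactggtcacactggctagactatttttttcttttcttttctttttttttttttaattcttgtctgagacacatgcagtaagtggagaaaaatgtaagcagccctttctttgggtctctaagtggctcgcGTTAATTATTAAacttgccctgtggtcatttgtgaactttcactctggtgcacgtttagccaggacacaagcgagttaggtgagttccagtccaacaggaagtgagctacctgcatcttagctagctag
Both strands were searched, each motif on its own. Of 32851 promoters in the table, 4817 (14.7%) hold GGAATG and 20 (0.0609%) hold the HNF1 motif. Of 86 named genes that passed a test here, 64 have a window on their own chromosome within 5000 bases of the gene, and a few have more than 1, so genes were counted by a match in any window. TEAD letters stood in 10 of the 53 genes that fell (18.9%) and in 1 of the 11 that rose (9.09%), against 4481 of all 27025 genes (16.6%). TGACTCA, the AP-1 motif, stood in 5 of the 53 (9.43%) and 1 of the 11 (9.09%), against 1607 of all genes (5.95%). CAAAGTCCA, an HNF4 motif, stood in none of the 64, against 150 of all genes (0.555%). These shares are descriptions, and none was tested. The windows of Egfr and Pim1 hold none of the 4 motifs. A match is a string of letters and not a measured binding site, and Ctgf has no entry in the table.

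Targets of YAP and TEAD were lower in YAP-SY CCA tumors where they passed the test. Of 27 tested targets, 6 fell and none rose, with a median log2 fold change of -0.59 and 22 of 27 below 0. Ctgf, a secreted matricellular protein (ENSMUSG00000019997, chromosome 10, 24595442 to 24598683), was at 38, 19.5 and 25.6 CPM in CCA and 101, 84.6 and 90.3 CPM in mixed tumors. Every mixed tumor held more Ctgf than any CCA tumor, and the gene was 3.31-fold lower (log2 fold change -1.73, SE 0.27, adjusted p 0.0129). Ankrd1, a nuclear ankyrin repeat protein whose promoter is shown above (ENSMUSG00000024803, chromosome 19, 36111965 to 36119844), was at 22.8, 8.72 and 13.3 CPM in CCA and 78.4, 91.6 and 45.4 CPM in mixed tumors. It was 4.79-fold lower (log2 fold change -2.26, SE 0.35, adjusted p 0.0136), and CCA tumor 6 had the least. Cyr61, the relative of Ctgf, held 34.7, 38.6 and 35.6 CPM in CCA and 62.8, 71.8 and 53.8 CPM in mixed tumors (log2 fold change -0.79, SE 0.17, adjusted p 0.036), a smaller step with little spread in either group. Ptpn14, a phosphatase that binds YAP and is also its target, held 22.3, 18.2 and 26 CPM in CCA and 42.4, 54.2 and 44.5 CPM in mixed tumors (log2 fold change -1.09, SE 0.17, adjusted p 0.0129). The other called targets were Tgfb2 (log2 fold change -1.70, adjusted p 0.0372) and Myof, a membrane repair protein (log2 fold change -1.53, adjusted p 0.0393). Ctgf and Ankrd1 kept their calls in 5 of the 6 omissions of a YAP-SY tumor and lost them without CCA tumor 6 (log2 fold changes of -1.53 and -1.99, adjusted p 0.0604 for each). Cyr61 kept its call in 1 of the 6 omissions, that of mixed tumor 9. The list had 4 calls without CCA tumor 1, 3 without CCA tumor 8 and 3 without mixed tumor 5. Targets that did not pass include Amotl2 (log2 fold change -0.41, adjusted p 0.11), Axl (log2 fold change -0.67, adjusted p 0.12) and Lats2 (log2 fold change -0.26, adjusted p 0.321).

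Of 20 tested components of the Hippo pathway itself 1 passed, and 7 were separated downwards. Over all tested genes 2.7% were called lower and 12.1% were separated downwards. Frmd6, an upstream activator of the kinase cascade, fell (9.31, 7.77 and 7.87 CPM in CCA, against 14.5, 13.7 and 15.5 CPM in mixed tumors, log2 fold change -0.81, adjusted p 0.0439), no component rose, and the median was -0.16. Yap1 was at 102, 83 and 88.2 CPM in CCA and 90.2, 73.6 and 87.4 CPM in mixed tumors and did not pass (log2 fold change 0.12, SE 0.13, adjusted p 0.618), and with library size alone as the scaling its sign turned (-0.16). Akt1 was at 199, 105 and 276 CPM in CCA and 416, 520.3 and 379.6 CPM in mixed tumors, without overlap and without passing (log2 fold change -1.18, SE 0.43, adjusted p 0.143). Reads of the introduced forms of YAP and AKT may or may not count towards these mouse genes, and the species of the introduced sequences is not given in the sources used here. The TEAD factors Tead1 (log2 fold change -0.80, adjusted p 0.0675), Tead2 (log2 fold change -1.29, adjusted p 0.0614) and Tead4 (log2 fold change -1.06, adjusted p 0.0986) did not pass, nor did Wwtr1, which encodes the YAP relative TAZ (log2 fold change -0.50, adjusted p 0.0609).

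Of the 30 cholangiocyte markers, 5 fell in YAP-SY CCA tumors, none rose and 15 were separated downwards. Among all tested genes 2.7% fell and 12.1% were separated downwards. Sox9, a biliary transcription factor that YAP induces in liver (ENSMUSG00000000567, chromosome 11, 112782224 to 112787760), was at 20.0, 7.99 and 14.7 CPM in CCA and 35.6, 65.8 and 23.9 CPM in mixed tumors. The highest CCA value lay below the lowest mixed value, and Sox9 was 2.93-fold lower (log2 fold change -1.55, SE 0.35, adjusted p 0.0391). Pkhd1, the cilium protein fibrocystin, held 76.5, 87 and 82.9 CPM in CCA and 162, 279 and 128 CPM in mixed tumors, where mixed tumor 5 was the highest (log2 fold change -1.21, SE 0.23, adjusted p 0.0234). Dcdc2a, a doublecortin family protein of primary cilia (log2 fold change -1.44, adjusted p 0.0398), Cd24a, a surface glycoprotein of biliary and progenitor cells (log2 fold change -1.51, adjusted p 0.0439), and Bicc1, an RNA-binding protein of duct epithelium (log2 fold change -1.15, adjusted p 0.0469), were the other calls. Spp1, osteopontin, was the most abundant marker, at 4074, 2717 and 3032 CPM in CCA and 7486, 16190 and 4088 CPM in mixed tumors, and missed the threshold (log2 fold change -1.50, SE 0.39, adjusted p 0.0578). Epcam (log2 fold change -1.23, adjusted p 0.111), Krt7 (log2 fold change -1.13, adjusted p 0.461) and Cftr (log2 fold change -1.70, adjusted p 0.0621) did not pass either. Mixed tumor 5 had the highest summed marker level of the 6, and without it the list's median was -0.59 with 1 member called. Without CCA tumor 1, 6 or 8 no member was called, at medians of -1.24, -0.90 and -1.14. Sox9 without CCA tumors 1, 6 and 8 and mixed tumor 5 had adjusted p of 0.0542, 0.108, 0.0701 and 0.138. Of 18 genes of the Notch pathway, which guides bile duct development, 2 fell. They were the ligand Jag1 (38, 18.2 and 28.9 CPM in CCA and 60.5, 79.5 and 50.3 CPM in mixed tumors, log2 fold change -1.16, adjusted p 0.0309) and the feedback gene Nrarp (log2 fold change -1.22, adjusted p 0.0234). The list's median was -0.54. Of 17 oncofetal liver genes, 3 fell: Cd34 (log2 fold change -0.75, adjusted p 0.0372), Scd2 (log2 fold change -1.26, adjusted p 0.0411) and Golm1 (log2 fold change -0.95, adjusted p 0.0449).

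Hepatocyte genes were higher on balance in YAP-SY CCA tumors, but no member of the identity list passed the edgeR test. Alb, the main plasma protein, was at 103050, 114470 and 98823 CPM in CCA and 80602, 64340 and 65613 CPM in mixed tumors, and Hnf4a, the central transcription factor of hepatocytes, at 846, 625 and 699 CPM in CCA and 505, 355 and 555 CPM in mixed tumors. The groups did not overlap in either gene, and neither passed (log2 fold change 0.59, adjusted p 0.127 for Alb and log2 fold change 0.62, adjusted p 0.106 for Hnf4a). Cyp2e1, a cytochrome of the pericentral zone, had log2 fold change 0.65, adjusted p 0.231, with mixed tumor 5 lowest. Medians of related lists were 0.61 for 18 bile acid genes, 0.52 for 31 complement and coagulation genes, 0.50 for 25 cytochromes P450, 0.56 for 22 genes of the urea cycle and amino acid metabolism, 0.55 for 19 conjugating enzymes and 0.34 for 22 nuclear genes of oxidative phosphorylation. All members of the bile acid, complement, conjugation and oxidative phosphorylation lists had log2 fold changes above 0, and none passed. Separated upwards were 13 of 29 identity, 10 of 18 bile acid, 17 of 31 complement and coagulation and 10 of 25 cytochrome genes. So were 9 of 22 urea cycle and amino acid, 11 of 19 conjugation and 7 of 22 oxidative phosphorylation genes, against 7.99% of all tested genes. The DESeq2 Wald test called 8 of the 29 identity genes as higher, and without mixed tumor 5 the median of that list was 0.30.

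Of the 38 higher genes, 32 averaged 5 CPM or more across the CCA tumors. After Egfr, and leaving out predicted genes, the largest were Cyp3a59, a drug-metabolizing cytochrome (84.9, 164 and 94.6 CPM in CCA, against 69.5, 29.6 and 38 CPM in mixed tumors, log2 fold change 1.33, adjusted p 0.0452), and Ugt2b38, a glucuronosyltransferase (46.1, 43.3 and 44.3 CPM in CCA, against 20.9, 10.2 and 24.6 CPM in mixed tumors, log2 fold change 1.26, adjusted p 0.0391). Both belong to families of near-identical genes, so reads may be split between copies. Slc17a2, a solute carrier of the phosphate transporter family, held 511, 391 and 384 CPM in CCA and 274, 173 and 226 CPM in mixed tumors (log2 fold change 0.93, adjusted p 0.0369). Slc27a2, which takes up and activates very long-chain fatty acids, held 1410.4, 1678 and 1388 CPM in CCA and 945, 564 and 911 CPM in mixed tumors (log2 fold change 0.89, adjusted p 0.0492). Dpyd, the first enzyme of pyrimidine breakdown (log2 fold change 0.81, adjusted p 0.0446), Keg1, an acyltransferase-like gene (log2 fold change 0.83, adjusted p 0.0469), and Pdilt, a protein disulfide isomerase-like gene (log2 fold change 0.93, adjusted p 0.0372), completed the 10 together with Pim1 and Lifr. In each of these genes the 3 CCA tumors lay above the 3 mixed tumors, which was a condition of their choice. Of 23 genes of the unfolded protein response, Xbp1, its transcription factor, rose, at 409, 274 and 304 CPM in CCA and 196, 204 and 212 CPM in mixed tumors (log2 fold change 0.69, SE 0.17, adjusted p 0.048), and the list's median was 0.27, below 0 with library size alone. Xbp1 lost its call in each of the 6 omissions of a YAP-SY tumor, at log2 fold changes from 0.50 to 0.80.

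Several genes of activated fibroblasts and the matrix were lower in YAP-SY CCA tumors. Of 22 tested markers of fibroblasts and stellate cells 8 fell and none rose, 18 had log2 fold changes below 0, the median was -1.04, and the mean log2 CPM of the list was 3.72 ± 0.26 in CCA and 4.59 ± 0.26 in mixed tumors (SD, n = 3 each). Acta2, the smooth muscle actin of activated stellate cells (ENSMUSG00000035783, chromosome 19, 34241090 to 34255336), was at 13.3, 9.48 and 12.5 CPM in CCA and 38.9, 38.7 and 42.3 CPM in mixed tumors. Both groups were tight and far apart, and Acta2 was 3.4-fold lower (log2 fold change -1.77, SE 0.24, adjusted p 0.0127). Postn, a matrix protein of activated fibroblasts, held 21.7, 33.8 and 27.5 CPM in CCA and 66, 71.5 and 56.3 CPM in mixed tumors (log2 fold change -1.22, SE 0.18, adjusted p 0.0129). Lox, the enzyme that crosslinks collagen, held 2.17, 2.38 and 3.34 CPM in CCA and 6.88, 11.5 and 8.88 CPM in mixed tumors (log2 fold change -1.79, SE 0.28, adjusted p 0.0139). Fbn1 (log2 fold change -1.24, adjusted p 0.0182), Timp1 (log2 fold change -1.74, adjusted p 0.0232), Loxl2 (log2 fold change -1.58, adjusted p 0.0228), Tagln (log2 fold change -1.58, adjusted p 0.0329) and Col5a1 (log2 fold change -1.29, adjusted p 0.0346) also fell. Col1a1, the main fibrillar collagen chain, was at 19.1, 13.8 and 45.8 CPM in CCA and 42.2, 71.8 and 109 CPM in mixed tumors; CCA tumor 8 was above mixed tumor 3, and the test was not passed (log2 fold change -1.51, adjusted p 0.0922). The other 4 had log2 fold changes above 0 and did not pass: Lrat, the enzyme with which quiescent stellate cells store retinoids (21.1, 39.9 and 20.9 CPM in CCA, against 14.7, 8.26 and 13.7 CPM in mixed tumors, log2 fold change 1.16, adjusted p 0.166), Dcn (log2 fold change 0.35, adjusted p 0.251), Pdgfra (log2 fold change 0.13, adjusted p 0.741) and Reln (log2 fold change 0.03, adjusted p 0.924). In Lrat and Dcn every CCA tumor lay above every mixed tumor. The list had 4 calls without CCA tumor 1, none without CCA tumor 6 and 5 without mixed tumor 5. The summed level of the 22 markers was 629.6, 658 and 853 CPM in CCA, against 932, 1222 and 1369.7 CPM in mixed tumors. Hepatocyte marker RNA, given above, was higher in the same CCA tumors, and its part in these results was not tested.

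Some ligands and targets of TGF-beta, integrins and mesenchymal genes were lower too. Of 16 genes of the TGF-beta response 3 fell (median -0.53). Tgfb3, one of the ligands, was at 8.07, 3.52 and 5.9 CPM in CCA and 24.8, 24.2 and 30.5 CPM in mixed tumors, 4.53-fold lower (log2 fold change -2.18, SE 0.30, adjusted p 0.0127). It overlaps Ttll5 in the genome, and reads of the overlap cannot be told apart because the counting is not stated to use strand. Tgfb2, another ligand and a YAP target, held 10.9, 3.91 and 5.68 CPM in CCA and 19.9, 23.3 and 23.6 CPM in mixed tumors, and Pmepa1, a feedback inhibitor of the pathway, had log2 fold change -1.01, adjusted p 0.0393. Of 18 integrins and laminins 3 fell and 12 were separated downwards, against 2.7% and 12.1% of all tested genes. Itgb8, which frees latent TGF-beta, was called (4.64, 2.57 and 4.06 CPM in CCA, against 9.48, 22.8 and 8.85 CPM in mixed tumors, log2 fold change -1.86, adjusted p 0.0228). Itga3 (log2 fold change -1.31, adjusted p 0.0373) and Itgb4, of the hemidesmosome (log2 fold change -1.58, adjusted p 0.048), were the other calls. Of 16 mesenchymal transition genes 4 fell, among them Vim, the intermediate filament of mesenchymal cells (47.1, 51.6 and 58.9 CPM in CCA, against 92.8, 122 and 145 CPM in mixed tumors, log2 fold change -1.19, adjusted p 0.0365), Tnc (log2 fold change -2.01, adjusted p 0.0263) and Sparc (log2 fold change -1.0, adjusted p 0.0421). Of 21 junction genes the connexin Gja1 was the 1 that passed, as lower, against 2.7% of all tested genes. It held 26, 14.6 and 23.2 CPM in CCA and 51.3, 108 and 39.6 CPM in mixed tumors (log2 fold change -1.64, adjusted p 0.0258). Cdh1, E-cadherin, did not pass (log2 fold change -0.44, adjusted p 0.342). Endothelial markers had a median of -0.03 over 19 genes, 10 below 0 and 9 above, with Cd34 and Vwf lower (log2 fold change -0.91, adjusted p 0.0439 for Vwf). In 4 of them every CCA tumor lay above every mixed tumor, without a call: Lyve1 (log2 fold change 1.06, adjusted p 0.0818), Clec4g (log2 fold change 0.67, adjusted p 0.164) and Fcgr2b (log2 fold change 0.42, adjusted p 0.133), which liver sinusoidal endothelium expresses, and Tek (log2 fold change 0.38, adjusted p 0.352).

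Most genes of antigen presentation and of T and NK cells had log2 fold changes below 0, with few calls, while interferon response genes did not lean either way. Of 19 genes of antigen presentation and dendritic cells, 18 had log2 fold changes below 0, with a median of -1.67, and 2 passed. Ciita, which switches on the class II genes, was at 1.43, 1.76 and 4.34 CPM in CCA and 5.19, 26.5 and 11.8 CPM in mixed tumors (log2 fold change -2.54, SE 0.62, adjusted p 0.047). CCA tumor 8 came close to mixed tumor 3, and Ciita overlaps Dexi, so reads of the overlap cannot be told apart. Itgax, the integrin CD11c of dendritic cells, held 8.43, 6.62 and 13.1 CPM in CCA and 18.3, 47.1 and 24.1 CPM in mixed tumors (log2 fold change -1.67, adjusted p 0.0304). The class II genes H2-Aa (log2 fold change -1.84, adjusted p 0.0634), H2-Ab1 (log2 fold change -1.90, adjusted p 0.0612) and H2-Eb1 (log2 fold change -2.0, adjusted p 0.0563) missed the threshold, while the class I genes H2-K1 (log2 fold change -0.27, adjusted p 0.571) and B2m (log2 fold change 0.17, adjusted p 0.661) were closer to 0. All 22 T and NK cell genes had negative log2 fold changes (median -1.36) and none passed; their summed level was 10.9, 19.4 and 20.8 CPM in CCA and 19.2, 68.7 and 30.3 CPM in mixed tumors, so the groups overlapped. Medians were -0.57 for 20 macrophage genes, -0.59 for 10 neutrophil genes and 0.07 for 13 genes of B and plasma cells, with no call. Of 24 interferon response genes 13 were below 0 and 11 above, with a median of -0.04 and no call. Ptprc, the leukocyte antigen CD45, was at 19.7, 23.8 and 29.4 CPM in CCA and 32.4, 74.1 and 31.7 CPM in mixed tumors (log2 fold change -0.92, adjusted p 0.13), with mixed tumor 5 far above the rest. Without mixed tumor 5 the medians were -1.01 for antigen presentation and -0.58 for T and NK cells. No antigen presentation gene was called without CCA tumor 1, CCA tumor 6 or mixed tumor 5, and 8 were called without mixed tumor 3. Of 19 genes of NF-kB signalling and inflammation, Nfkbie (log2 fold change -1.26, adjusted p 0.026) and Tnf fell; Tnf was at 0.362, 0.335 and 0.445 CPM in CCA and 1.26, 3.0 and 1.16 CPM in mixed tumors (log2 fold change -2.25, adjusted p 0.0191).

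**Figure D3:**
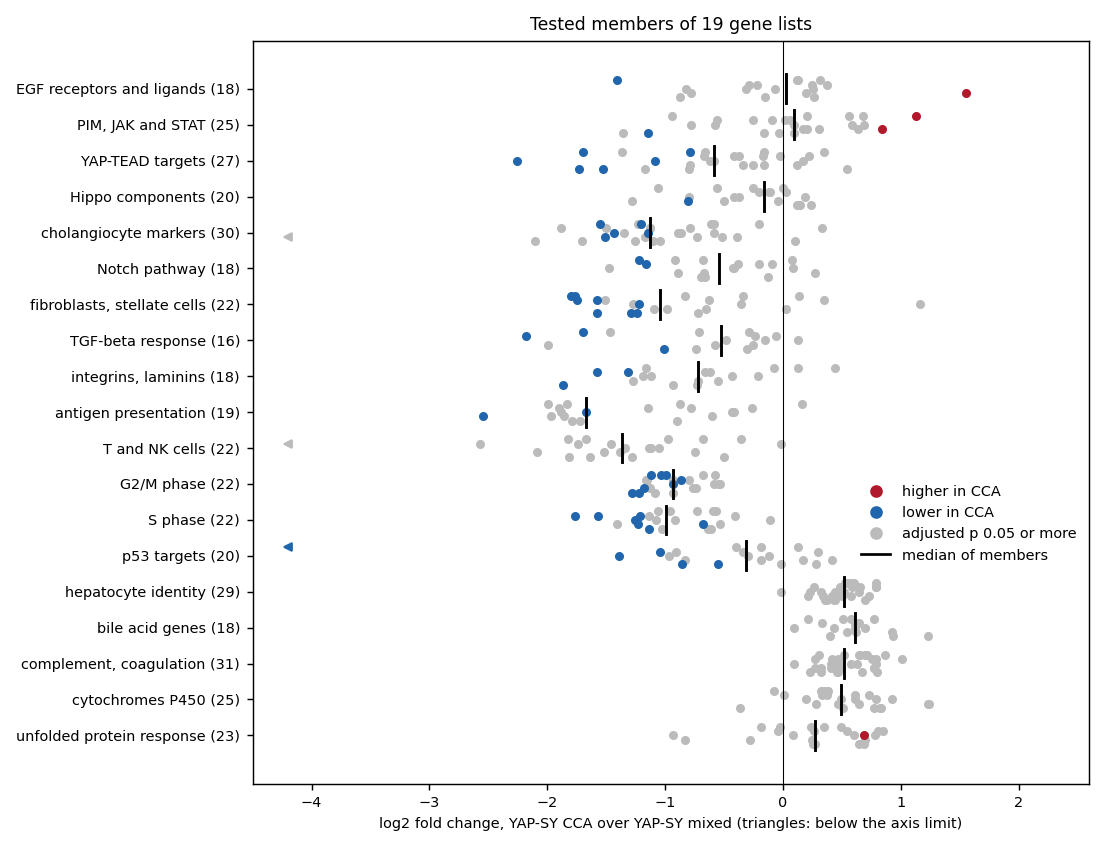
Log2 fold change of YAP-SY CCA over YAP-SY mixed tumors for every tested member of 19 gene lists, with the number tested in brackets; red and blue points passed the test, and black bars are medians. The medians lie below 0 from the YAP-TEAD targets down to the list named p53 targets, lowest at -1.67 for antigen presentation. Those of the 4 hepatocyte lists lie above 0.

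Cell cycle genes were lower in YAP-SY CCA tumors. All 22 tested G2/M genes had negative log2 fold changes, with a median of -0.93, 8 passed as lower and 19 were separated downwards. The shares over all tested genes were 2.7% called lower and 12.1% separated downwards. Top2a, the topoisomerase of dividing cells, was at 29.4, 18.7 and 28.4 CPM in CCA and 52, 87.7 and 46.8 CPM in mixed tumors (log2 fold change -1.29, SE 0.27, adjusted p 0.0319). Mki67, the Ki-67 antigen, held 52.9, 39.2 and 45.1 CPM in CCA and 93.4, 142 and 63.1 CPM in mixed tumors (log2 fold change -1.12, adjusted p 0.0416). Prc1 (log2 fold change -1.18, adjusted p 0.0304), Kif11 (log2 fold change -0.93, adjusted p 0.0393) and Cenpf (log2 fold change -1.03, adjusted p 0.0397), all of the mitotic spindle or kinetochore, fell as well. All 22 S phase genes were also below 0 (median -0.99), with 7 called. Mcm4, a subunit of the replicative helicase, was at 10.1, 10.8 and 11.5 CPM in CCA and 23.3, 33.3 and 20.9 CPM in mixed tumors (log2 fold change -1.26, adjusted p 0.0182); Mcm3 (log2 fold change -1.21, adjusted p 0.0301) and Uhrf1, which carries DNA methylation through replication (log2 fold change -1.76, adjusted p 0.0319), fell with it. Ccne2, a cyclin of S phase entry, fell (log2 fold change -1.57, adjusted p 0.0182) and overlaps the more strongly counted gene Ints8. Ccnd1, the G1 cyclin that drives entry, was at 94.5, 56 and 87.1 CPM in CCA and 139, 186 and 166 CPM in mixed tumors (log2 fold change -1.05, adjusted p 0.0418). Myc was at 11.2, 5.2 and 15.9 CPM in CCA and 6.32, 14.1 and 12.9 CPM in mixed tumors, overlapped between the groups and had no stable sign (log2 fold change -0.06, adjusted p 0.949). Of 20 genes in the list named p53 targets 5 fell, among them Cdkn2a, which is not itself a target induced by p53. Cdkn1a, the cell cycle inhibitor p21, held 34.6, 35.1 and 37.5 CPM in CCA and 70.1, 73.9 and 50.1 CPM in mixed tumors (log2 fold change -0.86, adjusted p 0.0218); Tnfrsf10b (log2 fold change -1.05, adjusted p 0.0276), Phlda3 (log2 fold change -1.39, adjusted p 0.0372), Zmat3 (log2 fold change -0.56, adjusted p 0.0452) and Cdkn2a (log2 fold change -4.33, adjusted p 0.025) were the others, the last at 0, 0.0839 and 0.0278 CPM in CCA and 0.732, 0.314 and 1.17 CPM in mixed tumors. Without mixed tumor 5 no G2/M or S phase gene passed, and the medians were -0.75 and -0.80. Without CCA tumor 1, 6 or 8 no G2/M gene passed either, at medians of -1.06, -0.82 and -0.99, and S phase had 1, 0 and 4 calls.

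The 10 largest falls, predicted genes left out, were taken among genes averaging 5 CPM or more across the mixed tumors. Wfdc18, a small secreted protein, was at 1.81, 0.671 and 0.835 CPM in CCA and 11, 8.42 and 17.6 CPM in mixed tumors, 11-fold lower (log2 fold change -3.46, SE 0.59, adjusted p 0.018). Clca2, an epithelial regulator of chloride channels, held 5.66, 1.82 and 2.09 CPM in CCA and 22.8, 18.2 and 44.8 CPM in mixed tumors (log2 fold change -3.15, SE 0.72, adjusted p 0.0398). Sprr1a (log2 fold change -2.37, adjusted p 0.0421) and Lce6a (log2 fold change -2.38, adjusted p 0.0175), genes of the cornified envelope of squamous epithelia, fell too. Wisp2, a matricellular relative of Ctgf, was at 1.2, 1.01 and 2.98 CPM in CCA and 5.22, 4.13 and 23.1 CPM in mixed tumors (log2 fold change -2.67, adjusted p 0.0439), its mixed mean set mainly by tumor 9. Cspg4, a proteoglycan of pericytes (log2 fold change -2.57, adjusted p 0.0304), S100a4, a calcium-binding protein of fibroblasts and macrophages (log2 fold change -2.51, adjusted p 0.0243), Mgl2, a lectin of macrophages and dendritic cells (log2 fold change -2.36, adjusted p 0.0416), Ctnna2, a neuronal alpha-catenin (log2 fold change -2.34, adjusted p 0.0234), and Ciita completed the 10. The 3 CCA tumors lay below the 3 mixed tumors in each, which was a condition of their choice. Most of the CCA values were under 3 CPM. Of 20 immediate early genes, Egr2 (log2 fold change -1.31, adjusted p 0.0338) and Ier3 (log2 fold change -1.90, adjusted p 0.0391) fell, and of 18 hypoxia genes Car9 (log2 fold change -2.09, adjusted p 0.0259). Such falls were called in 2.7% of all tested genes. No gene of the lists for muscle, pancreas, adipocytes, erythroid cells and platelets, or mesothelium passed; 3, 2, 4, 8 and 5 of their genes had enough counts for the test.

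The same contrast was then set beside that of the YAP-S tumors, and the difference between the contrasts was tested directly. Within YAP-S, no gene passed with edgeR for CCA against mixed (0%, with 3636 at unadjusted p under 0.05), while DESeq2 called 1465 and limma-voom 3609. That 0 held for TMM scaling with the default count filter: edgeR called 117 genes with DESeq2 size factors, 137 with upper quartile factors, 711 with library size alone, 570 without a count filter and 302 among genes averaging 1 CPM or more. Without YAP-SY CCA tumor 6, which is in neither YAP-S group, 670 genes passed in that YAP-S contrast, and 138, 164, 287 and 179 did without YAP-SY CCA tumor 8 or YAP-SY mixed tumors 3, 5 and 9. None passed with any 1 YAP-S tumor left out. The difference, YAP-SY minus YAP-S, passed for 2788 genes, 920 higher (5.02%) and 1868 lower (10.2%). Without YAP-SY CCA tumor 6 it passed for 1970 genes, 518 higher and 1452 lower. It passed for 1749 genes without YAP-SY mixed tumor 5, for 1744 and 1323 without YAP-S CCA tumors 4 and 5, and for 1058 and 1564 without YAP-S mixed tumors 2 and 9. The split moved with the scaling, the test and single tumors: 150 higher and 4180 lower with library size alone, where the median of the differences was -0.51, 1704 and 2527 with DESeq2, 201 and 1122 without YAP-S CCA tumor 5, and 202 and 856 without YAP-S mixed tumor 2. Of the 494 genes lower in YAP-SY CCA, 465 (94.1%) had a YAP-S log2 fold change above 0, against 48.4% of all tested genes. The 2 contrasts share no tumor, and the YAP-S directions are those of estimates, not of calls. Egfr levels were 515, 426 and 217 CPM for the YAP-S CCA tumors 3, 4 and 5 and 732, 320.4 and 719 CPM for the YAP-S mixed tumors 2, 7 and 9 (log2 fold change -0.61, SE 0.36), and its contrast differed between the models by 2.17 (SE 0.52, adjusted p 0.0184). Pim1 levels were 24.7, 24.2 and 18.2 CPM for the YAP-S CCA tumors 3, 4 and 5 and 14.9, 14.6 and 16.6 CPM for the YAP-S mixed tumors 2, 7 and 9, the same direction as in YAP-SY, and the difference of 0.59 did not pass (SE 0.23, adjusted p 0.0934). Ankrd1 levels were 197, 127 and 136 CPM for the YAP-S CCA tumors 3, 4 and 5 and 45, 70.1 and 68.6 CPM for the YAP-S mixed tumors 2, 7 and 9 (log2 fold change 1.32), a difference of -3.58 (SE 0.49, adjusted p 0.00292). Acta2 differed by -2.42 (adjusted p 0.00293), Sox9 by -2.12 (adjusted p 0.0154), Col1a1 by -3.17 (adjusted p 0.00999), Alb by 1.26 (adjusted p 0.0154) and Hnf4a by 1.21 (adjusted p 0.0165).

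**Figure D4:**
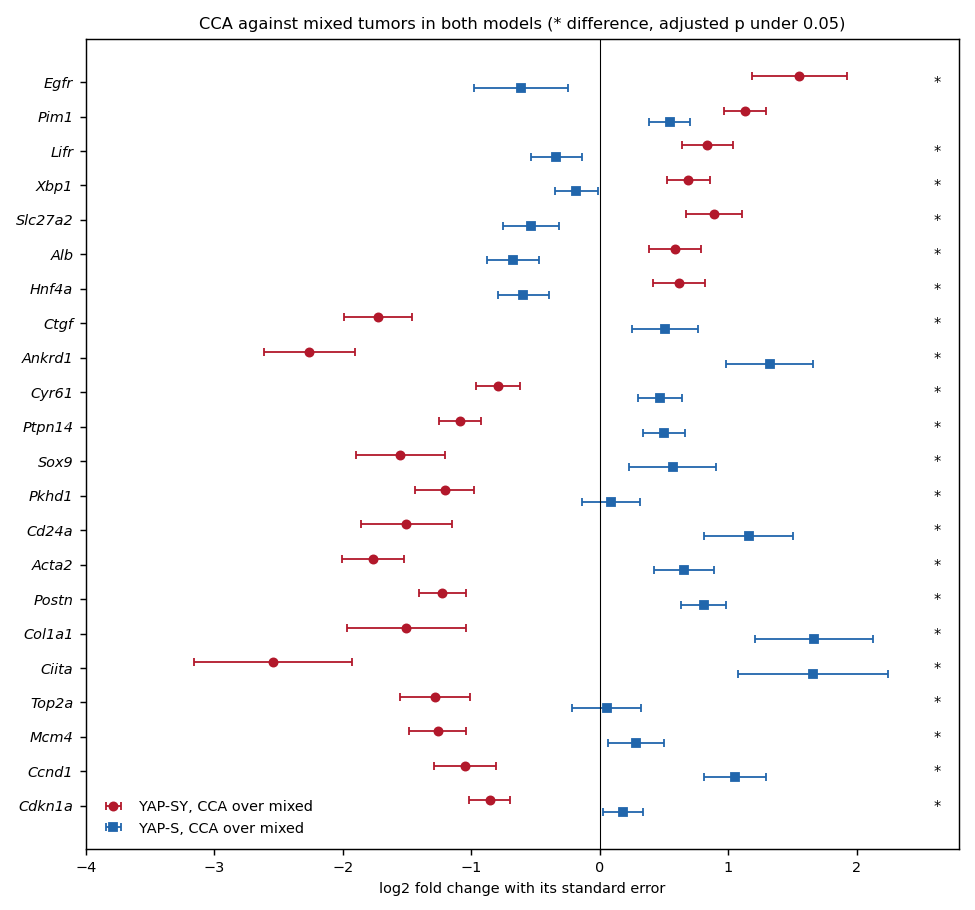
Log2 fold change of CCA over mixed tumors for 22 genes in YAP-SY (red circles) and YAP-S (blue squares), with standard errors; a star marks a difference between the models with adjusted p under 0.05. Pim1 lies above 0 in both models and is the 1 gene without a star, while Egfr lies at 1.55 in YAP-SY and -0.61 in YAP-S.

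By list, the difference passed as lower in YAP-SY for 17 of 19 antigen presentation genes, 15 of 22 fibroblast genes, 12 of 27 YAP and TEAD targets, 11 of 19 NF-kB genes and 10 of 30 cholangiocyte markers, and as higher for 19 of 31 complement and coagulation genes and 12 of 29 hepatocyte identity genes. Over all tested genes, the difference passed as lower for 10.2% and as higher for 5.02%. In the cell cycle lists 3 of 22 G2/M genes, near that 10.2%, and 8 of 22 S phase genes passed as lower. The median YAP-S log2 fold changes of these lists were -0.09 and 0.18. In the mean log2 CPM of the YAP and TEAD targets, YAP-SY CCA tumors had 4.02 ± 0.15 and YAP-SY mixed tumors 4.66 ± 0.12, while YAP-S CCA tumors had 5.13 ± 0.09 and YAP-S mixed tumors 4.69 ± 0.19 (SD, n = 3 each). Mixed tumors of the 2 models thus lay within 1 SD of each other, with the CCA groups on either side. For the hepatocyte identity genes the order was reversed, with 11.64 ± 0.01 in YAP-SY CCA, 11.11 ± 0.36 in YAP-SY mixed, 10.60 ± 0.27 in YAP-S CCA and 11.11 ± 0.17 in YAP-S mixed tumors. The 3 YAP-SY CCA tumors were nearly level on that list, the smallest spread of the 4 groups. Among the largest differences outside the lists were lower ones for Akr1cl (-6.24), Wisp2 (-5.48), Tubb3 (-5.25) and Fbln2 (-4.54) and higher ones for Ugt2b38 (2.63), Cyp17a1 (2.55), Mup14 (2.38) and Mup7 (2.37). Tubb3 overlaps a far more strongly counted gene, while Mup14 and Mup7, urinary protein genes, belong to a family of near-identical copies. Of 20 tested genes with sex-biased expression in liver, the difference passed as higher for 6, against 5.02% of all genes. The mean log2 CPM of 5 sex-linked genes was 4.52 in YAP-SY CCA tumor 6, against 3.25 and 3.48 in CCA tumors 1 and 8. It was 3.58, 3.26 and 3.63 in YAP-SY mixed tumors 3, 5 and 9. Any part of sex was not tested.

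**Figure D5:**
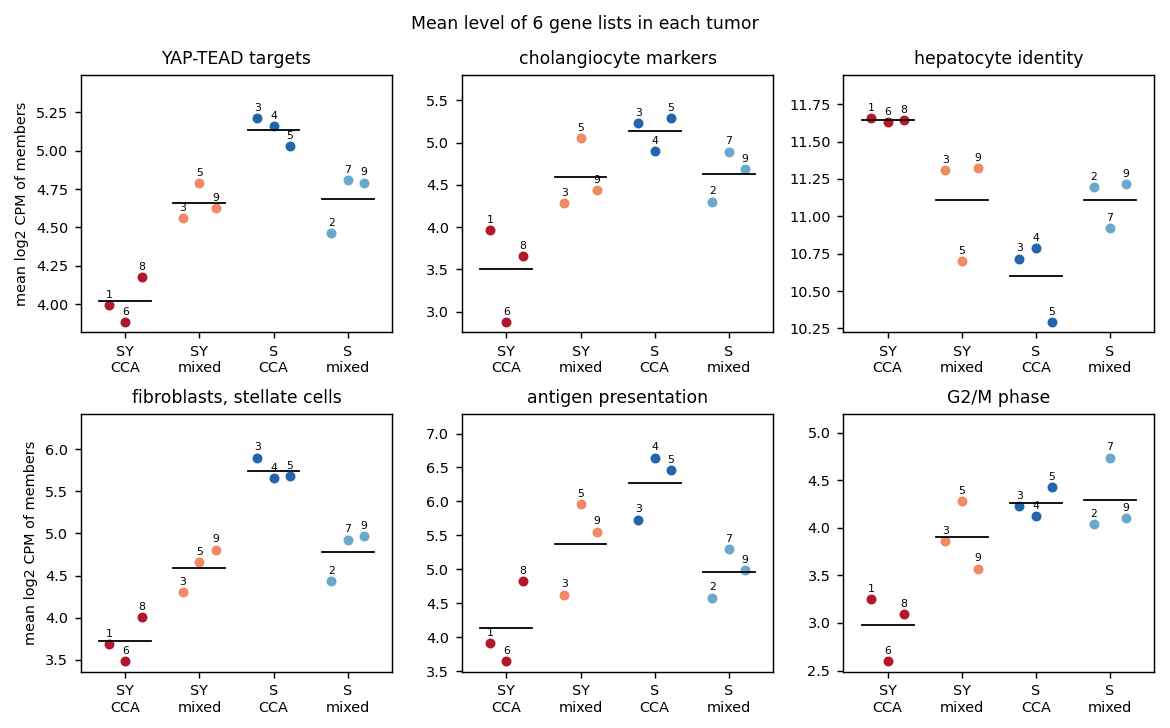
Mean log2 CPM of the members of 6 gene lists in each tumor, with tumor numbers beside the points and bars at group means; SY and S stand for YAP-SY and YAP-S. The 3 YAP-SY CCA tumors lie below all other tumors for YAP and TEAD targets, cholangiocyte markers, fibroblast and G2/M genes and above all others for hepatocyte identity; for antigen presentation CCA tumor 8 lies above YAP-SY mixed tumor 3.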

How the data were processed

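RNA from the tumor nodules had been purified with a miRNeasy Tissue/Cells Advanced Micro kit and made into libraries with a TruSeq mRNA kit, per the labels. The authors deposited counts per gene, with the tumors and the cell lines apart. STAR and mm10 are named in the submitters' processing notes. The counting tool and the use of strand are not given in the sources used here. The tumor counts were deposited under a name that calls them corrected, and what was corrected is not given either. They were fitted as raw counts. In the cell line counts, 3 columns matched no sample and were not used. In the tumor counts, 27 gene symbols written as dates were restored. Total counts per tumor were 30656499 to 130035221, which sets the counting precision. Sequences come from RefSeq (GRCm38.p6).

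Counts of the 12 tumors were fitted together in edgeR 4.0.16 (R 4.3.3, limma 3.58.1) with the quasi-likelihood test, 4 groups, TMM scaling, filterByExpr by group and Benjamini-Hochberg adjustment over 18318 of 43346 genes at 0.05. The contrasts were CCA against mixed within YAP-SY, within YAP-S, and their difference. The SE is the log2 fold change over the root of the F statistic. The procedure was run on simulated counts with planted changes. These held no outlying tumor and no effect of the column sets. They therefore cannot show how far the calls depend on single tumors. Alternatives were other scalings, DESeq2 1.42.0, limma-voom, other count filters, the 6 YAP-SY tumors alone, the beginning of the column name as a term, and each tumor left out. Members and gene lists were chosen with earlier results of these data known. Named genes are the 10 largest rises and falls without overlap that average 5 CPM or more where they are higher, predicted genes left out, up to 4 called genes per list by p, a panel of single genes, and the 5 largest differences between the models in each direction. Members of lists named as not passing, and called ones beyond those 4, were chosen after their values were seen. No overlap of tumor numbers pairs the groups. Some genes that this rule or the lists name are not reported here. The cell line samples were not analysed here.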

Additional observations from a re-analysis of the deposited data

Results flagged for a closer look

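The contrast of CCA against mixed tumors differed between YAP-SY and YAP-S, by edgeR's test of the difference itself with Benjamini-Hochberg adjustment, for 2788 genes. Values are the YAP-SY log2 fold change minus that of YAP-S. Higher differences among the named genes were Egfr (2.17, adjusted p 0.0184), Alb (1.26, adjusted p 0.0154), Hnf4a (1.21, adjusted p 0.0165), Ugt2b38 (2.63, adjusted p 0.00371), Cyp17a1 (2.55, adjusted p 0.0101), Mup14 (2.38, adjusted p 0.0292) and Mup7 (2.37, adjusted p 0.0279). Lower differences in YAP targets and in bile duct and growth genes were Ctgf (-2.24, adjusted p 0.00443), Cyr61 (-1.26, adjusted p 0.00783), Ankrd1 (-3.58, adjusted p 0.00292), Sox9 (-2.12, adjusted p 0.0154) and Ccnd1 (-2.10, adjusted p 0.00426). Lower differences in stromal and leukocyte genes were Col1a1 (-3.17, adjusted p 0.00999), Acta2 (-2.42, adjusted p 0.00293), Ptprc (-1.55, adjusted p 0.0384), Wisp2 (-5.48, adjusted p 0.00394) and Fbln2 (-4.54, adjusted p 0.00617). Further lower differences were Akr1cl (-6.24, adjusted p 0.00617) and Tubb3 (-5.25, adjusted p 0.00371). Akr1cl and Tubb3 were near 0 in YAP-SY CCA tumors, so their differences depend on the prior count, and Tubb3 overlaps a gene with far more reads.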

How the results depend on the processing

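No paired analysis was possible because YAP-SY CCA tumors 1, 6 and 8 and YAP-SY mixed tumors 3, 5 and 9 share no number. The counts of called genes moved with most choices. The 532 calls (38 higher, 494 lower) became 2006 (18 and 1988) with library size alone, 1834 (451 and 1383) with DESeq2, 16 (2 and 14) with limma-voom, 859 (58 and 801) without a count filter, 166 (3 and 163) with the column name term and 0 with the 6 YAP-SY tumors alone, where 2317 genes had an unadjusted p under 0.05; within the larger set of columns 59 genes were higher. Leaving out a YAP-SY tumor gave 0 to 595 calls, 0 to 36 higher and 0 to 559 lower. Of 75 named genes called, 7 stayed called with limma-voom, 25 with the column name term, 45 within the larger set of columns, 0 with 6 tumors and 0 to 64 without a tumor. The 71 called list members became 181 with library size alone, 225 with DESeq2, 128 without a filter, 7 with limma-voom, 24 with the column name term, 0 with 6 tumors and 0 to 81 without a tumor. The 2788 differences between the models became 4330 with library size alone, 4231 with DESeq2 and 1058 to 3077 without a tumor. Signs turned, none of them in a called gene, for Yap1 (-0.16) and Glul (-0.037) and their differences (-0.29 and -0.22) with library size alone, for Myc with limma-voom (0.61) and without CCA tumor 6 (0.27), mixed tumor 5 (0.15) or mixed tumor 9 (0.06; from -0.45 to 0.27 over the 6 omissions), for Cdh1 without mixed tumor 5 (0.0047; from -0.68) and for the Afp difference without YAP-S CCA tumor 5 (0.58; from -1.79). The cause of these changes was not tested.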
